A study of Mus musculus with 6 samples.

Results

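Mitophagy is the selective removal of mitochondria by autophagy. The genes described here are 6 mitophagy receptors (Fundc1, Bnip3, Bnip3l, Bcl2l13, Fkbp8 and Phb2), Fundc2, the relative of Fundc1, the kinase Pink1, and the mitofusins Mfn1 and Mfn2. They were chosen by name as the rows of the deposited table that carry these symbols, and all 10 were found among its 23412 rows. Fundc1 was included because its mRNA was already known to be nearly absent in the Htt-null cells of these libraries, and the question was whether the other mitophagy genes differed as well. RNA-seq compared undifferentiated mouse embryonic stem cells (mESCs) of strain 129Sv. R1 is the wild type line, and HN is the Htt-/- line in which the promoter and exon 1 of Htt are deleted. Both were kept without feeder cells, with leukemia inhibitory factor and inhibitors of FGF and VEGF receptors, MEK and GSK3. Each line gave 3 libraries (replicates 1, 2 and 3), collected on 3 dates that the lines share by number. Since each genotype is 1 cell line, the loss of Htt and any other difference between these lines cannot be told apart.

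Mitophagy follows a pair of routes. In the ubiquitin route, PINK1 accumulates on damaged mitochondria and phosphorylates ubiquitin there, and the ubiquitinated proteins include the mitofusins, the GTPases that fuse outer membranes. In the receptor route, proteins that sit in the mitochondrial membranes bind LC3 on the growing autophagosome directly. FUNDC1 and the related BNIP3 and NIX (the product of Bnip3l) are known for mitophagy under low oxygen, BCL2L13 and FKBP8 are further receptors of the outer membrane, and PHB2 (prohibitin 2) is an inner membrane receptor exposed when the outer membrane breaks.

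The receptors share a short LC3-interacting region, whose core of 4 residues begins with an aromatic and ends with an aliphatic residue. The coding bases of that core are shown for the 6 receptors because they are the feature by which Fundc1 belongs with the others. They were found in the transcript with the longest coding sequence of each gene in GENCODE M21 (build GRCm38), 5′ to 3′ on the coding strand. The 12 bases of the core are in capitals, and coordinates cover the whole stretch of 30 bases.

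Fundc1: gacgaatcaTACGAAGTGTTGgatttaact

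Bnip3: cagggctccTGGGTAGAACTGcacttcagc

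Bnip3l: aacagttccTGGGTGGAGCTAcccatgaac

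Bcl2l13: cccgagtccTGGCAGCAGATTgcaatggac

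Fkbp8: ctggagggcTTTGAGGTGCTCgatggggtt

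Phb2: cccagcatgTACCAGCGTCTAgggctggac

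The core begins with a tyrosine codon in Fundc1 (exon 2, chrX:17571416-17571445, residues 18 to 21 of 155) and in Phb2 (exon 4, chr6:124714043-124714072, residues 121 to 124 of 299). It begins with a tryptophan codon in Bnip3 (residues 13 to 16 of 187), Bnip3l (residues 35 to 38 of 218) and Bcl2l13 (exon 7, chr6:120886894-120886923, residues 273 to 276 of 434). In Bnip3 the stretch joins exons 1 and 2 (chr7:138898803-138909366, intron included), as it does in Bnip3l (chr14:66999679-67008691). Fkbp8 has a phenylalanine codon there (exon 2, chr8:70529474-70529503, residues 24 to 27 of 403). The core of Fundc1 had 0 matches in the 151 residues encoded by Fundc2, which says only that these 4 residues do not occur there in this order.

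The libraries held between 1640391 and 3866717 reads on genes, recovered from the deposited normalized counts, and the counting error of each value follows from its reads. Htt, the targeted gene, had normalized counts of 199 to 257 in R1 and 18.3 to 58.1 in HN mESCs. All 10 markers of embryonic stem cells examined were detected in both lines, with a summed level of 15605 to 22093 in R1 and 17264 to 23731 in HN, against 74.0 to 166 in R1 and 30.5 to 83.4 in HN for 8 fibroblast markers, of which 0 were at 0 in all libraries and 1 had at most 3 reads in each. By limma 0 of the 10 stem cell markers passed between the lines without a block for the collection date, where DESeq2 called Zfp42 and Fbxo15 lower in HN, and 5 were higher and 2 lower in HN with the block, as against 9.48% of all tested genes in either direction. Of the fibroblast markers, Pdgfrb and Thy1 were lower in HN with that block. The summed level of 12 markers of differentiated lineages was 219 to 398 in R1 and 261 to 447 in HN, and 1 of them (T) was higher in HN by limma with the block. The part of these differences in the results below was not tested. In bulk RNA, fewer cells of a type and less RNA per cell cannot be told apart.

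Differences between the lines are given as HN minus R1 in mean log2(normalized count + 1), a scale on which genes of few reads change less than their ratio would show. A gene passed when its Benjamini-Hochberg (BH) adjusted p-value, by limma over all 14276 genes with a mean normalized count of at least 5, was under 0.05. Standard errors and limma intervals are from the fit without the block where no fit is named. All 10 genes were among those tested. Fundc1 was the only one of them to pass, without the block for the collection date and with it. It was included because it was already known to be nearly absent in HN. Of the other 9, 0 passed without the block or with it, where 0.245% and 9.48% of all tested genes passed. The other 9 had log2 fold changes between -0.39 and 0.32 with a median of -0.01, the same as the median over all tested genes (-0.01). Without the block, the BH-adjusted p of each of these 9 was 0.99998 by limma, and 0 reached an unadjusted p-value under 0.05, as against 5.91% of all genes. With the block, 4 of the 9 (Bnip3, Bnip3l, Pink1 and Fkbp8) reached an unadjusted p-value under 0.05 by limma, as against 21.6% of all genes, and the smallest BH-adjusted p of the 9 was 0.0629. By DESeq2 on the recovered reads 0 of the 9 passed, with or without the block (0 and 1 at an unadjusted p-value under 0.05), and by edgeR 0 passed without the block and 1 (Fkbp8) with it.

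**Figure D1:**
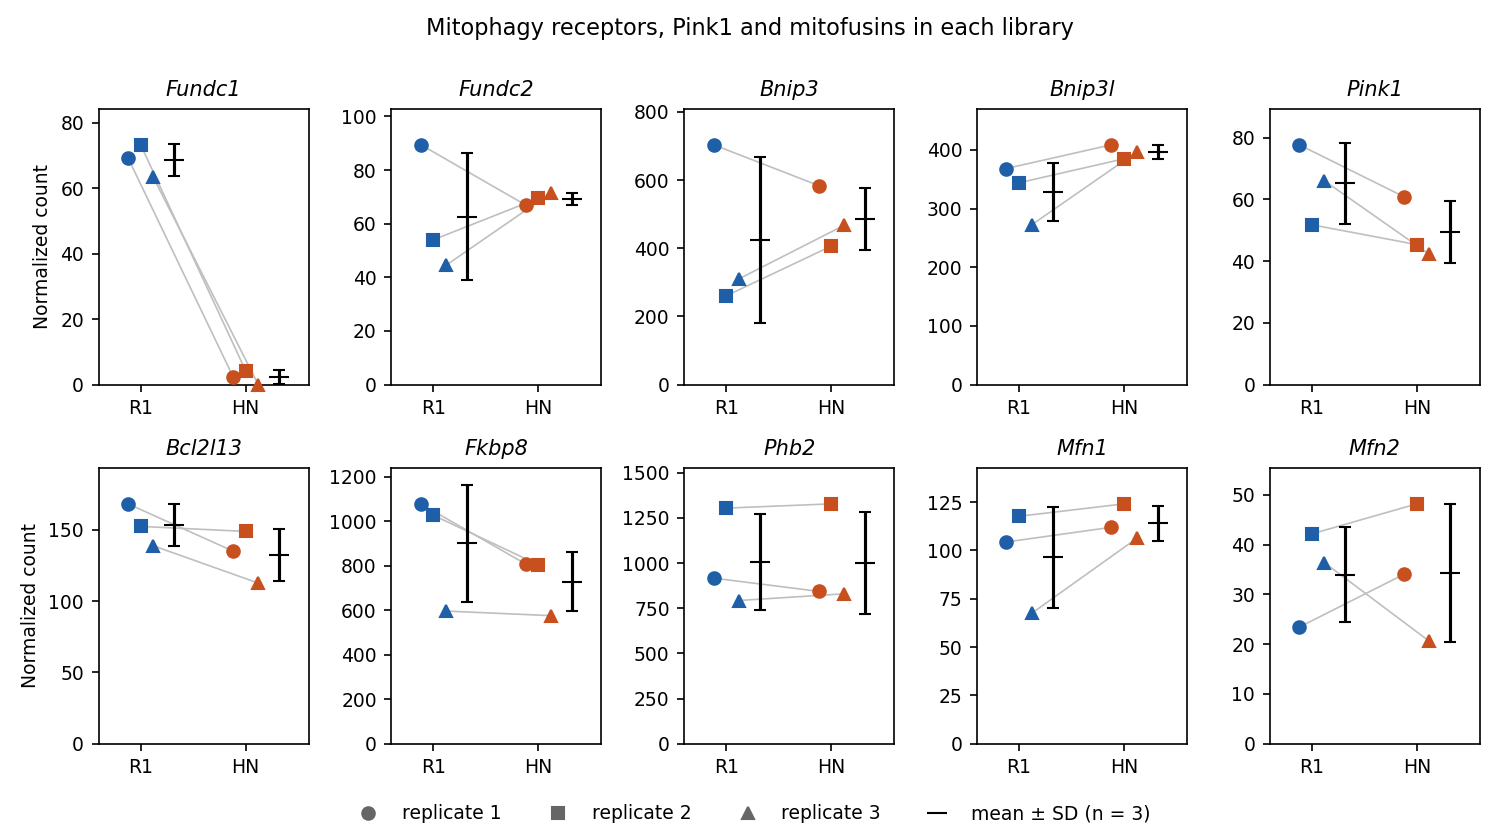
Normalized counts (vertical axes, each from 0) of the 10 genes in the R1 (blue) and HN (orange) libraries, with a marker shape for each replicate, grey lines joining libraries of the same date, and bars for mean ± SD (n = 3). Fundc1 falls from 63.3 or more in each R1 library to 4.25 or less in each HN library, while the libraries of the lines overlap for the other genes except Bnip3l.

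Fundc1 (chrX:17556564-17572325, minus strand) encodes the outer membrane receptor of hypoxia-induced mitophagy. R1 replicates 1, 2 and 3 had 69.2, 73.2 and 63.3 normalized counts of Fundc1, and the HN libraries had 2.43, 4.25 and 0. These values rest on 65, 99 and 47 reads in R1 and on 2, 6 and 0 in HN. All HN libraries lay far below all R1 libraries. Over the pooled reads, 211 in R1 and 8 in HN, the HN level was 3.64% of that in R1 (95% exact interval 1.55% to 7.31%, counting error only), or 27.4-fold lower. The log2 fold change was -4.73 (standard error, SE, 0.60, limma adjusted p = 0.00669 unblocked), and its 95% interval with the replicate block ran from -5.55 to -3.91. Within the same-date pairs Fundc1 differed by -4.35, -3.82 and -6.01, a wider spread than that interval. Of the 50-base stretches of its transcripts, 0% occur in another gene's transcripts. Without R1 replicate 1 the log2 fold change was -4.72 but the gene no longer passed (BH-adjusted p = 0.111 by limma without the block).

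The genes with the profile most like that of Fundc1 were Kdm6a, an X-linked histone demethylase, and Maoa, the X-linked monoamine oxidase A. Likeness was measured as the mean absolute difference over the 6 libraries of log2 values centred on the R1 mean, which was 0.54 for Kdm6a and 0.55 for Maoa. Both lie near Fundc1 on the X chromosome, Maoa at chrX:16619698-16687818 and Kdm6a at chrX:18162575-18279936. The next were Gm5506, Hnf4a and Htt itself, at 0.73, 1.06 and 1.13. Maoa had 178 to 258 normalized counts in R1 and 1.08 to 7.09 in HN, and Kdm6a had 209 to 320 in R1 and 0 to 10.6 in HN. Fundc1 thus lies between a pair of genes that were also far lower in this HN line.

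Fundc2 (chrX:75382399-75396459, plus strand) encodes a mitochondrial outer membrane protein of the same family and lies elsewhere on the X chromosome. Normalized counts of Fundc2 were 89.4, 54.0 and 44.5 in R1 and 66.9, 69.5 and 71.5 in HN replicates 1, 2 and 3. The HN values lay between those of R1 replicate 1 and of the other two R1 libraries, so the lines overlapped. The log2 fold change of 0.21 (SE 0.28, 95% interval -0.41 to 0.82) did not pass, and it changed sign, to -0.0053, without R1 replicate 3. Per kb of exon, the Fundc1 level was 0.916 to 1.69 times that of Fundc2 within the R1 libraries and 0 to 0.0725 times within the HN libraries. The normalized count of Fundc2 in HN was 69.3 ± 2.29, against 62.6 ± 23.7 in R1 (SD, n = 3).

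Bnip3 and Bnip3l encode related BH3-type receptors, and both genes are textbook targets of hypoxia-inducible factor. Bnip3 (chr7:138890836-138909519) had normalized counts of 704, 260 and 310 in R1 and of 584, 406 and 467 in HN replicates 1, 2 and 3. Replicate 1 was the highest library in each line, and the HN values lay inside the range of R1. HN differed from R1 by 0.32 on the log2 scale (SE 0.32 unblocked and 0.12 blocked, limma adjusted p = 0.0989 when blocked by replicate). Within the same-date pairs the log2 differences were -0.27, 0.64 and 0.59, so replicate 1 went the other way from replicates 2 and 3. Without replicate 1 of both lines, the pair that went the other way, the log2 fold change was 0.61. Bnip3 then passed by limma with the block (BH-adjusted p = 4.62e-05), where 1127 genes passed in all, but not without the block (0.9997). With the block it did not pass without replicate 2 or 3 of both lines (0.780 and 0.330). Of the 50-base stretches of Bnip3, 47.2% also occur in transcripts of other genes, among them Gm45507, whose exons overlap Bnip3, so its reads are uncertain.

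Bnip3l (chr14:66985239-67008877) had normalized counts of 368, 344 and 272 in R1 and of 409, 385 and 396 in HN replicates 1, 2 and 3. Each HN library was higher than each R1 library. Of the 9 genes other than Fundc1, Bnip3l was the only 1 whose lines did not overlap, as against 10.8% of all tested genes. R1 averaged 328 ± 49.9 and HN 397 ± 11.96 (SD, n = 3). This difference did not pass (log2 fold change 0.28, SE 0.19 unblocked and 0.11 blocked, limma adjusted p = 0.0950 when blocked by replicate). A pseudogene, Bnip3l-ps, shares 50-base stretches with it, and 20.8% of those of Bnip3l are found elsewhere. The ratio of Bnip3 to Bnip3l per kb of exon was 1.29 to 3.25 in R1 and 1.80 to 2.43 in HN, with overlap.

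Bcl2l13 (chr6:120836212-120892842), the mammalian counterpart of a yeast mitophagy receptor, had normalized counts of 168, 152 and 139 in R1 and of 135, 149 and 113 in HN replicates 1, 2 and 3. HN was lower within each same-date pair, but the lines overlapped and the log2 fold change of -0.22 did not pass (SE 0.21). Fkbp8 (chr8:70527724-70535328), an outer membrane protein of the immunophilin family, had 1077, 1026 and 596 in R1 and 807, 804 and 575 in HN replicates 1, 2 and 3. Replicate 3 was the lowest library of each line, and its pair differed least, by -0.05 on the log2 scale, against -0.42 and -0.35 in pairs 1 and 2. The log2 fold change was -0.27 (SE 0.25 unblocked and 0.095 blocked, limma adjusted p = 0.0629 when blocked by replicate). EdgeR with the block put the adjusted p at 0.0391. Without replicate 3 of both lines, the pair that differed least, the log2 fold change was -0.38. Fkbp8 then passed by limma with the block (BH-adjusted p = 0.00135), where 1683 genes passed in all, but not without the block (0.728). With the block it did not pass by limma without replicate 1 or 2 of both lines (0.293 and 0.572).

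Phb2 (chr6:124712336-124716950) was the most abundant of the 10 genes and differed least between the lines. Normalized counts of Phb2 were 917, 1304 and 793 in R1 and 843, 1328 and 830 in HN replicates 1, 2 and 3. Replicate 2 was the highest library in both lines, and the date separated the libraries more than the line did. The log2 fold change was -0.01, with a 95% interval from -0.19 to 0.17 with the block, and its sign changed when single libraries were left out. Phb, which encodes the partner of PHB2 in the prohibitin ring, had 526 ± 38.9 in R1 and 548 ± 86.2 in HN (SD, n = 3), a log2 fold change of 0.05 (limma adjusted p = 0.842 when blocked by replicate).

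Pink1 (chr4:138313409-138326307) had normalized counts of 77.7, 51.8 and 66.0 in R1 and of 60.8, 45.4 and 42.2 in HN replicates 1, 2 and 3. HN was lower within each same-date pair, by 0.35, 0.19 and 0.63 on the log2 scale, with overlapping lines. Its log2 fold change of -0.39 (SE 0.27 unblocked and 0.19 blocked) was the lowest of the 9 genes. It did not pass (limma adjusted p = 0.225 when blocked by replicate).

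Mfn1 (chr3:32529465-32579239) had normalized counts of 104, 118 and 67.4 in R1 and of 112, 124 and 106 in HN replicates 1, 2 and 3. HN was higher in each same-date pair, but by 0.10 and 0.08 in pairs 1 and 2 and by 0.65 in pair 3 where R1 replicate 3 was low. The mean log2 difference was 0.27 (SE 0.25), and 0.088 without replicate 3 of both lines. Mfn2 (chr4:147873599-147904704) had the fewest reads of the 10 genes in R1, 22, 57 and 27, and normalized counts of 23.4, 42.2 and 36.4. In HN they were 34.1, 48.2 and 20.6, and the pairs differed by 0.52, 0.19 and -0.79. The log2 fold change of -0.03 (SE 0.37) had no stable sign over the alternatives. The ratio of Mfn1 to Mfn2 per kb of exon was 1.57 to 3.78 in R1 and 2.19 to 4.38 in HN, again with overlap.

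**Figure D2:**
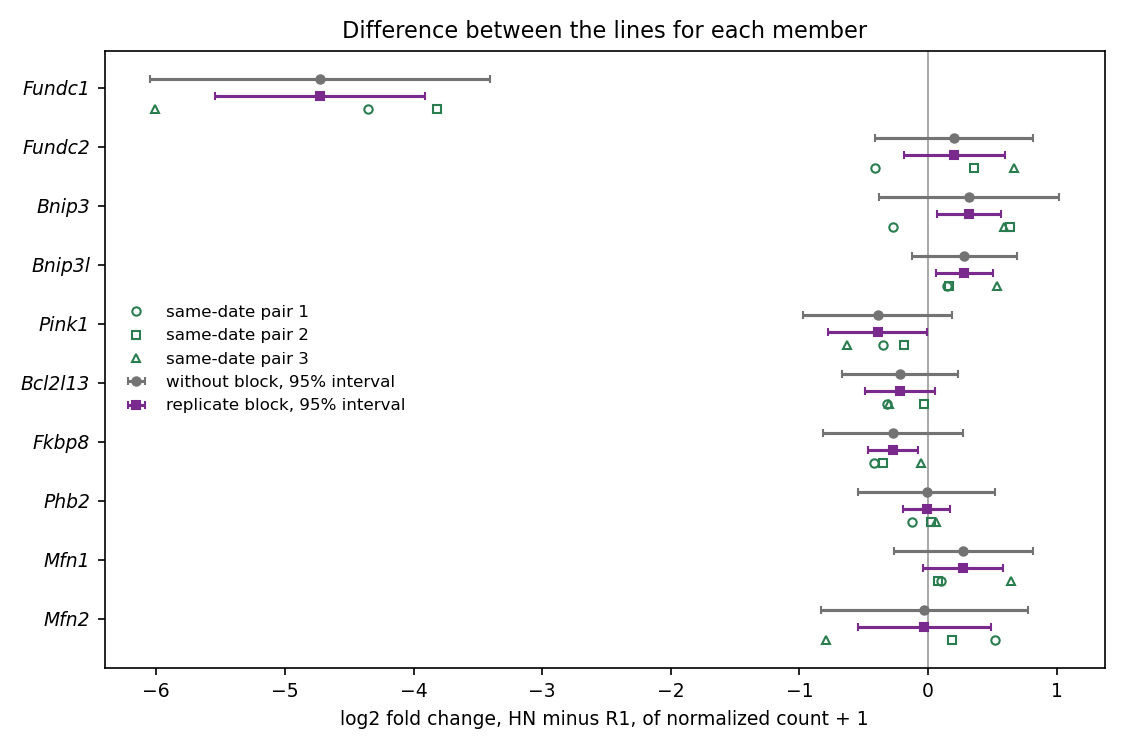
Log2 fold change (HN minus R1, of normalized count + 1) of the 10 genes with 95% intervals by limma without (grey circles) and with (purple squares) the replicate block, and the 3 same-date differences (green open markers). Fundc1 stands at -4.73, and the intervals of the other 9 genes without the block all include 0. With the block those of 4 genes (Bnip3, Bnip3l, Pink1 and Fkbp8) exclude 0, while 0 of the 9 passed by limma.

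The intervals give the size of mean difference that each limma fit leaves possible, with variances drawn toward a trend over all tested genes. Over the 9 genes other than Fundc1, the 95% intervals without the block reached from 0.511-fold (Pink1) to 2.03-fold (Bnip3). With the block they reached from 0.585-fold (Pink1) to 1.51-fold (Fundc2). Single same-date pairs could lie beyond the block interval of their own gene. Examples on the log2 scale are Bnip3 pair 2 (0.64, interval 0.07 to 0.57) and Mfn2 pair 3 (-0.79, interval -0.55 to 0.49). A change of the size seen for Fundc1 lay outside the interval of each of these 9 genes in both fits. Of the 9 genes other than Fundc1, 5 moved in the same direction in all 3 same-date pairs (Bnip3l and Mfn1, and Pink1, Bcl2l13 and Fkbp8), as against 41.5% of all tested genes. Fundc1, included as already known to be nearly absent in HN, did so too. For 8 of the 9, the range of the 3 date means was larger than the difference between the lines, as for 85.0% of all tested genes. The exception was Bnip3l, and for Fundc1 the difference between the lines was the larger as well.

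Per kb of exon, the 10 genes spanned a wide range of levels in R1. Phb2 was highest (270 ± 71.8 normalized counts per kb), followed by Fkbp8 (199 ± 58.4) and Bnip3 (188 ± 107), whose libraries overlapped (SD, n = 3 for each). Bnip3l (85.0 ± 12.9) lay below every library of these 3 genes. Fundc1 (29.2 ± 2.11), Pink1 (24.4 ± 4.86) and Fundc2 (22.5 ± 8.504) overlapped one another below it. Bcl2l13 (16.8 ± 1.62) and Mfn1 (15.8 ± 4.26) overlapped each other and Fundc2, and Mfn2 (6.54 ± 1.85) was lowest, without overlap with Mfn1. In HN, Fundc1 moved from place 5 to place 10, at 0.947 ± 0.907 per kb. Levels per kb depend on the exon length used, here all annotated exons of each gene, and the order in R1 was the same with the main coding transcript alone.

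**Figure D3:**
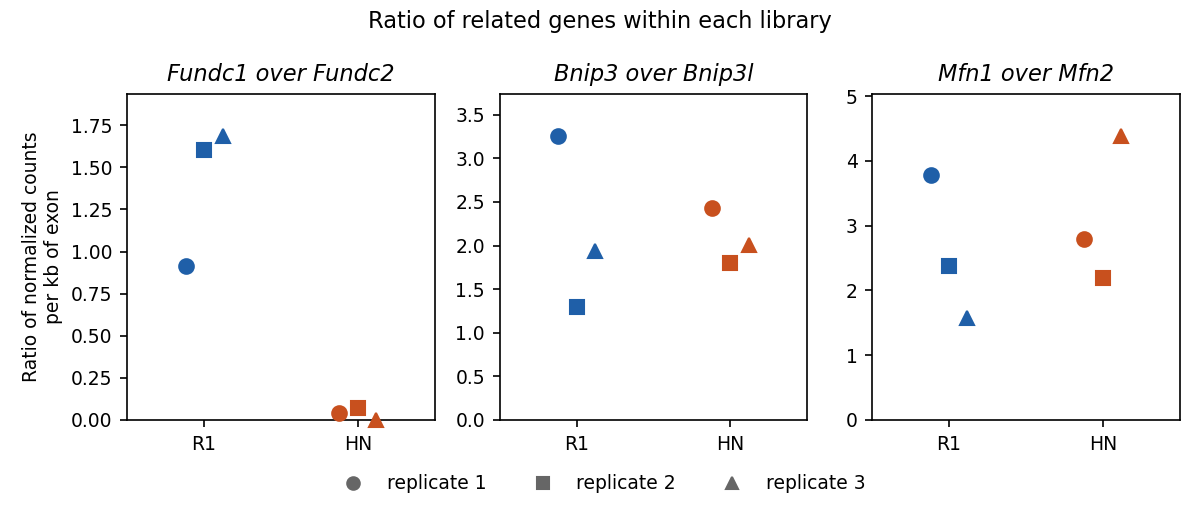
Ratio of the normalized counts per kb of exon (vertical axes, each from 0) of Fundc1 to Fundc2, Bnip3 to Bnip3l and Mfn1 to Mfn2 in each R1 (blue) and HN (orange) library, with a marker shape for each replicate. The lines separate for Fundc1 over Fundc2 (0.916 to 1.69 against 0 to 0.0725) and overlap for the other ratios.

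Regulators of the receptor and ubiquitin routes and the adaptors that link cargo to LC3 were followed as a list of 32 genes, of which 31 were matched and tested. Without the block 0 of the 31 passed by limma, edgeR or DESeq2, with 1 at an unadjusted p-value under 0.05 by limma. With it, 4 were higher and 1 was lower in HN, as against 9.48% of all genes in either direction, and the median log2 fold change was 0.10 against -0.01 over all genes. Gbas (now Nipsnap2), which encodes a matrix protein that recruits adaptors when exposed, was lower in HN, with 217, 156 and 131 in R1 and 92.5, 79.4 and 101 in HN replicates 1, 2 and 3. No HN library reached the lowest R1 library (log2 fold change -0.85, SE 0.24, limma adjusted p = 0.374 unblocked and 0.000151 when blocked by replicate). The lines did not overlap for 3 of the 31 genes, as against 10.8% of all tested genes.

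The 4 higher genes include a pair of adaptors. Sqstm1, which encodes the adaptor p62, had 648, 559 and 762 in R1 and 891, 680 and 884 in HN, and was higher in each same-date pair (log2 fold change 0.32, limma adjusted p = 0.0242 when blocked by replicate, and 0.160 and 0.267 without replicates 1 and 2 of both lines). Calcoco2, which encodes the adaptor NDP52, had 54.3, 73.2 and 197 in R1 and 151, 130 and 166 in HN. It was higher in pairs 1 and 2 and lower in pair 3 (log2 fold change 0.68, limma adjusted p = 0.014 when blocked by replicate), and its adjusted p was 0.325 and 0.0678 without replicates 1 and 2 of both lines. Ambra1, a scaffold of autophagy initiation, differed by 0.48 (limma adjusted p = 0.0168 when blocked by replicate), and did not pass when any 1 of the 3 dates was left out (0.0516 to 0.111). Nlrx1, a mitochondrial NOD-like receptor, had 1.22 (limma adjusted p = 0.0495 when blocked by replicate), but only 2 reads in R1 replicate 2. Without replicate 2 of both lines its adjusted p was 0.666, edgeR with the block did not call it (adjusted p = 0.0751), and its log2 fold change was 0.30 without R1 replicate 2. Of the 5 genes, DESeq2 with the block called Gbas only. Usp30, a deubiquitinase of the mitochondrial outer membrane, did not pass by limma with the block (log2 fold change 0.48, BH-adjusted p = 0.0855) but did by edgeR with it (adjusted p = 0.0492).

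**Figure D4:**
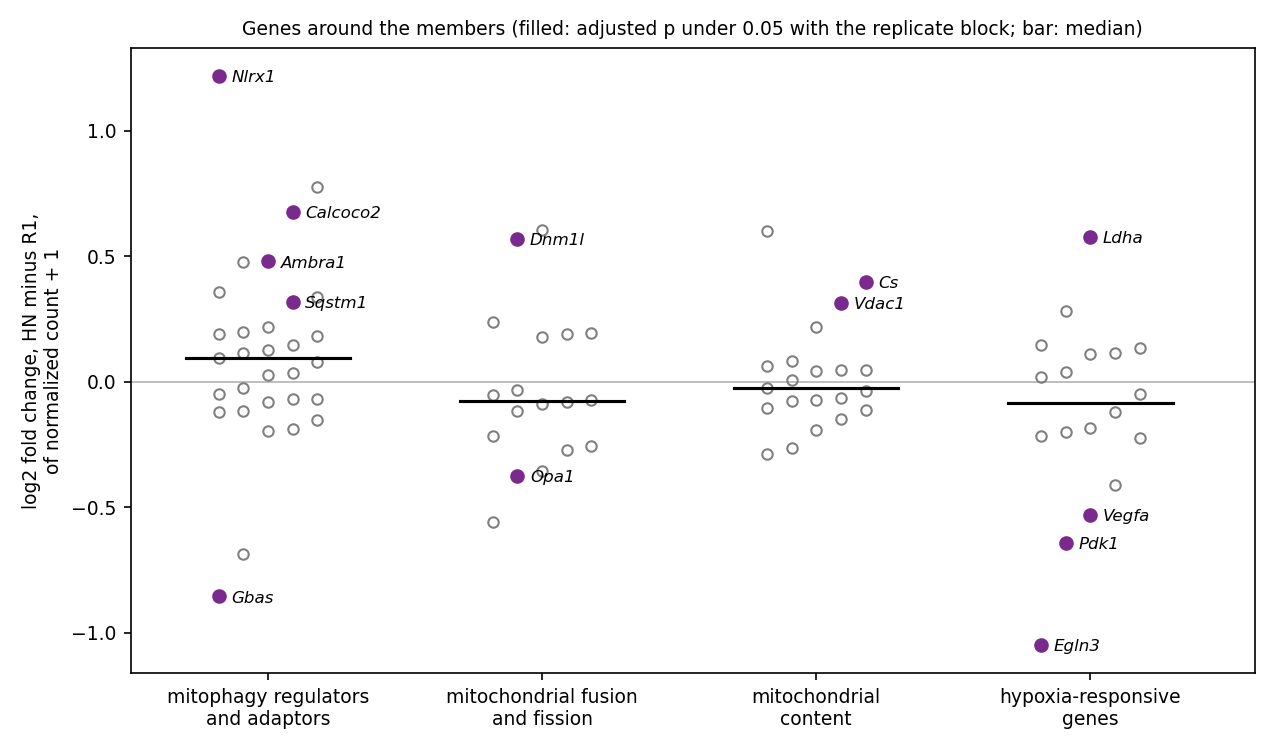
Log2 fold change (vertical axis, HN minus R1, of normalized count + 1) of each tested gene of the 4 lists, with filled, named points for genes with an adjusted p under 0.05 by limma with the replicate block, open points for the rest and bars for list medians. The medians lie between -0.08 and 0.10, and Dnm1l at 0.57 and Opa1 at -0.38 stand on opposite sides of 0.

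Fusion by the mitofusins is completed at the inner membrane by OPA1 and opposed by the division GTPase DRP1, encoded by Dnm1l. Of 19 genes of fusion and fission, 18 were tested, 0 passed without the block by limma, edgeR or DESeq2 (1 at an unadjusted p-value under 0.05 by limma) and 2 passed with it by limma, as against 9.48% of all genes. Dnm1l had normalized counts of 427, 514 and 422 in R1 and of 658, 684 and 675 in HN replicates 1, 2 and 3. Every HN library was higher than every R1 library, with a log2 fold change of 0.57 (SE 0.18, limma adjusted p = 0.5003 unblocked and 9.33e-05 when blocked by replicate). Opa1 had 548, 579 and 453 in R1 and 432, 429 and 355 in HN, again without overlap. Its log2 fold change was -0.38 (SE 0.19, limma adjusted p = 0.945 unblocked and 0.0106 when blocked by replicate), and without replicate 2 of both lines it did not pass with the block (BH-adjusted p = 0.283), nor did it by DESeq2 with the block (adjusted p = 0.0662). Dnm1l passed with the block whichever date was left out (BH-adjusted p from 4.79e-05 to 0.00178). The median of the list was -0.08, and 2 of its 18 tested genes had lines without overlap, as against 10.8% of all tested genes.

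General markers of mitochondrial content, such as import and inner membrane proteins, numbered 22, of which 21 were tested. The median log2 fold change was -0.02, close to that of all genes (-0.01). Cs (citrate synthase) had 712 ± 117 in R1 and 935 ± 110 in HN, and Vdac1, the outer membrane channel, had 1102 ± 40.7 in R1 and 1373 ± 75.1 in HN (SD, n = 3). Both were without overlap, as were 3 of the 21 in all, against 10.8% of all tested genes. By limma both passed only when the block was used, 2 of 21 as against 9.48% of all genes. Their log2 fold changes were 0.40 and 0.32 (BH-adjusted p = 0.00308 and 0.0169 by limma with the block). With the block, edgeR (adjusted p = 0.00121 and 0.00841) and DESeq2 (adjusted p = 0.0109 and 0.0419) also called both. Without replicate 2 of both lines neither passed by limma with the block (BH-adjusted p = 0.085 and 0.31). The other 19 did not pass by limma in either fit, although edgeR with the block called Cox4i1, a subunit of cytochrome c oxidase, lower (adjusted p = 0.0284), and without the block 0 of the 21 passed by limma, edgeR or DESeq2 and 0 reached an unadjusted p-value under 0.05 by limma.

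Since Bnip3 and Bnip3l respond to low oxygen, 20 further hypoxia-responsive genes were examined, of which 18 were tested. The promoter of Bnip3 is shown because it carries the core letters bound by hypoxia-inducible factor. It is the stretch of 237 bases before the gene start in GENCODE M21, chr7:138909520-138909756 on the minus strand (RefSeq, GRCm38.p6), 5′ to 3′, with the motif in capitals.

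Bnip3 promoter: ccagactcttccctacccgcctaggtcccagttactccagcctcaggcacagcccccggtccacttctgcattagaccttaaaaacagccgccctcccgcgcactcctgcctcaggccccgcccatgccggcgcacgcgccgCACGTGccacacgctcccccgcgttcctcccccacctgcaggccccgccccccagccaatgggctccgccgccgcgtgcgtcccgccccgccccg

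The letters ACGTG were searched on both strands in the 250 bases before each RefSeq start, the last 13 of which are not printed for Bnip3. In Bnip3 they occur on both strands as the overlapping palindrome CACGTG, which begins 95 bases before the end of the printed stretch and 108 bases before the RefSeq start, since that start lies 13 bases inside the GENCODE gene. Of the 10 genes, 9 had a promoter entry, and 5 of these held the letters (Bnip3, Fkbp8, Phb2, Fundc2 and, in 1 of its 3 promoters, Mfn2). So did 14 of the 18 hypoxia-responsive genes with a promoter entry and 18.5% of all 27025 genes with a promoter. These 18 are not the 18 tested genes, since they include Car9 and Adm, which were not tested, and lack Ndrg1 and Bhlhe40. The other form of the core, GCGTG, was held by 5 of the 9 (Bnip3, Fkbp8, Mfn2, Pink1 and Bcl2l13) and by 30.85% of all genes. Fundc1 held both forms 0 times. A match is a description of the sequence, not of binding.

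Among the hypoxia-responsive genes, 0 passed without the block by limma, edgeR or DESeq2 (3 at an unadjusted p-value under 0.05 by limma), where 5.91% of all genes reached that value. With the block 1 was higher and 3 were lower in HN by limma, as against 9.48% of all genes in either direction. Ldha (lactate dehydrogenase A) was higher, with a log2 fold change of 0.58 (limma adjusted p = 0.000105 when blocked by replicate). Pdk1, a pyruvate dehydrogenase kinase, had 1491, 1514 and 981 in R1 and 874, 949 and 704 in HN replicates 1, 2 and 3, a log2 fold change of -0.64 (limma adjusted p = 4.43e-06 when blocked by replicate). Egln3, an oxygen sensor, and Vegfa, an angiogenic factor, had log2 fold changes of -1.05 and -0.53 (limma adjusted p = 0.000805 and 0.0201 when blocked by replicate). Vegfa did not pass without replicate 1 or 2 of both lines (0.123 and 0.257), and DESeq2 with the block called neither Ldha nor Vegfa. The list median was -0.08. With the block DESeq2 called 0 of the list higher and 2 lower. Hif1a itself had 648 ± 177 in R1 and 681 ± 68.6 in HN (SD, n = 3), a log2 fold change of 0.10 (limma adjusted p = 0.630 when blocked by replicate).

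Replicate 1 was the highest library of both lines for Bnip3, and also for 6 of the 18 tested hypoxia-responsive genes (Vegfa, Egln1, Ndrg1, Ddit4, P4ha1 and Bhlhe40, a property chosen after their values were seen), as against 14.0% of all tested genes. Ndrg1 had normalized counts of 123, 20.7 and 28.3 in R1 and 91.3, 25.5 and 40.1 in the HN libraries of the same dates. The other 12 did not have this order. The part of the collection date in the difference of Bnip3 between the lines was not tested.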

How the data were processed

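Per the labels and the paper's methods, the authors mapped the reads with STAR (mm10), discarded PCR duplicates (Picard), took counts over exons from HTSeq and scaled them with DESeq2. The gene annotation, the tool versions and the strand setting are not given in the sources used here. The deposited values are thus a normalized signal per gene (reads divided by a size factor), not raw counts. In each library 100% of the values were, within 0.001 reads (in proportion for the largest counts), an integer number of the smallest value above 0, so reads were recovered for depth, counting error and the count-based alternatives. Without molecular identifiers, the exact interval of the pooled Fundc1 reads covers counting error only. The limma intervals rest on the spread between libraries. In 27 rows a date stands in place of a gene name; these stayed in the fits and are not named.

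Values were compared on log2(value + 1) with limma 3.58.1 (variance trend) in R 4.3.3 over 14276 genes with a mean of at least 5, adjusted by Benjamini-Hochberg over all of them. The labels give same-numbered libraries 1 collection date, which pairs them, although the paper's methods name no block. Across genes, same-date deviations from the line mean correlated at 0.25, 0.69 and 0.77, and different-date ones at -0.71 to 0.34. R1 replicate 1 correlated more with HN replicate 2 (0.34) than with HN replicate 1 of its own date (0.25). Deviations from a line mean cancel out within the line, so the same-date and different-date values are not independent. The fit with the replicate number as a block was an alternative, as were edgeR 4.0.16 and DESeq2 1.42.0 on recovered reads with and without the block, a pseudocount of 0.1 or 10, dropping the filter or raising it to 50, centring on the median, quantile normalization, leaving out the variance trend, and fits without single libraries or dates. An exact permutation test of 3 libraries against 3 cannot go below 0.1. The fits were run on simulated data with a known fold change, and the check required only that its median size was recovered. It set no limit on false calls, and differences as small as those of the genes other than Fundc1 were not simulated.

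The genes and lists were chosen with earlier results of these data known. Besides the 10 genes, the text names Htt, the neighbours Maoa and Kdm6a, Phb, Opa1, Dnm1l, Usp30, Hif1a and Sqstm1, the 5 genes most like Fundc1, and from each pathway list at most 5 genes that passed with or without the block; genes named for a count were chosen after their values were seen. Another item named by this rule is not reported here. Positions, exon lengths and shared 50-base stretches come from GENCODE M21, which need not be the annotation used for counting.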

Additional observations from a re-analysis of the deposited data

How the results depend on the processing

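Of the 10 genes, Bnip3, Bnip3l, Pink1, Bcl2l13, Fkbp8 and Mfn1 kept their direction in all 24 alternatives and Fundc1 in the 23 that tested it, with log2 fold changes of -6.05 to -2.70 for Fundc1. Fundc1 did not pass with a pseudocount of 0.1 (limma adjusted p = 0.0822), without the variance trend (0.142), without R1 replicate 1 (0.111), or without replicate 1 or 2 of both lines (0.713 and 0.0852), and a minimum mean of 50 left it and Mfn2 untested, so 0 of the 10 passed in each of these. Leaving out 1 library or 1 date without the block gave 0 to 1 of the 10. The replicate block, which pairs libraries by date, raised the genes passing from 35 to 1354 (edgeR 1605, DESeq2 469, against 97 for DESeq2 without it), and 0 passed without the variance trend (limma, 767 at an unadjusted p under 0.05). Leaving out 1 library gave 8 to 55 genes, leaving out 1 date 0 to 38 (0 without replicate 1, 9 without replicate 2), and with the block 494 to 1683 (1127 without replicate 1). Of the 10 genes, 2 passed with the block in edgeR and in limma without replicate 1 or without replicate 3. Against 0 without the block, the block called 5 mitophagy regulators (edgeR 5, with Usp30 in place of Nlrx1, DESeq2 1, limma without 1 date 1 to 4, of which 2 without replicate 1), 2 fusion and fission genes (2, 1, and 1 to 3, of which 2 without replicate 1), 2 content genes (3, 2, and 0 to 4, of which 2 without replicate 1) and 4 hypoxia-responsive genes (4, 2, and 3 to 5, of which 4 without replicate 1). Signs turned for 3 genes. Fundc2 fell from 0.21 to -0.0053 without R1 replicate 3 (leaving out 1 library gave up to 0.49) and to -0.028 without replicate 3 of both lines. Phb2 turned from -0.01 to 0.0045 with median centring, 0.046 without replicate 1 of both lines, and 0.10 to 0.19 without R1 replicate 2 or HN replicate 1 or 3 (lowest without 1 library -0.23). Mfn2 turned from -0.03 to 0.021 (edgeR), 0.031 (edgeR with the block), 0.0093 (DESeq2), and 0.04 to 0.36 without R1 replicate 2 (0.14) or 3, HN replicate 3 (0.29) or replicate 3 of both lines (lowest without 1 library -0.31). The cause of these changes was not tested. Depth limits Nlrx1, Mfn2 and the HN level of Fundc1, and each genotype rests on 1 line.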
